A study of Mus musculus with 8 samples.

Results

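Taf1b and 9 further genes of RNA polymerase I initiation and its product were followed in haematopoietic stem cells, which renew themselves and give rise to all blood lineages. The genes were taken by symbol: the subunit genes of the promoter selectivity factor SL1 (Taf1a, Taf1b, Taf1c and Taf1d), the initiation factor genes Rrn3 and Ubtf, the polymerase subunit genes Polr1a, Polr1b and Polr1e, and Rn45s, the ribosomal RNA precursor. All 10 of the 10 were among the 24222 symbols of the tables, and all 10 passed the filter on low counts, which left 11498 genes. The cells were sorted from the bone marrow of 4 wild-type control (WT) mice and 4 mice with a triple knockout (KO) of Kdm4a, Kdm4b and Kdm4c, all of strain C57BL6 and taken 2 weeks past induction of the knockout. Every animal contributed 1 RNA-seq library. How the knockout was induced, which cells it reached, which exons were deleted and whether the WT mice received the same inducing treatment is not stated in the labels, nor are the surface markers of the sort. From general knowledge of the publication, Taf1b was among the genes its authors picked on these very libraries, which means that its direction here is not independent evidence.

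RNA polymerase I makes a single long precursor RNA from the repeated ribosomal DNA, and this precursor is cut into most of the RNA of the ribosome. Initiation starts when UBTF and SL1 settle on the ribosomal DNA promoter. SL1 is built from the TATA-binding protein and the TAF1A to TAF1D subunits, and it is joined by a polymerase that carries RRN3.

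Total counts ran from 3594315 to 6044289 in WT libraries and from 5541504 to 14872493 in KO libraries, the largest being KO mouse 3. Kdm4c, a targeted gene, measured 98.8 to 148 counts per 1000000 (CPM) in WT and 26.0 to 49.0 CPM in KO, Kdm4a at 29.5 to 50.1 and 17.7 to 26.0 CPM, and Kdm4b at 6.71 to 12.1 and 1.11 to 5.15 CPM, so each KO library was below each WT library in all 3, but by edgeR only Kdm4c passed (adjusted p = 2.1e-05), while Kdm4a (adjusted p = 0.132) and Kdm4b (0.142) did not. These counts run over whole genes and so take in exons outside any deleted part. All 10 stem cell markers were detected, with a summed level of 3912 to 4175 CPM in WT and 3261 to 3605 CPM in KO, and 0 of 10 passed edgeR, Ly6a having the smallest p. At an unadjusted p under 0.05, 1 of them was higher and 4 lower, against 5.75% and 5.45% of all genes tested. With DESeq2 1 rose (Ly6a) and 1 fell (Mecom), while limma voom called 0. Run without the filter used for edgeR, DESeq2 called 80 higher and 77 lower of the 18385 genes to which it gave a p-value. DESeq2 sets aside low-count genes itself before it adjusts p, so fewer genes may have entered its adjustment. Summed levels of 6 megakaryocyte markers were 164 to 213 and 273 to 291 CPM (Gp1ba and Itga2b passed, higher). Pf4, another megakaryocyte marker, had a log2 fold change of -0.43 (95% interval -0.82 to -0.045, adjusted p = 0.376 by edgeR). Summed levels of 10 macrophage and dendritic markers were 61.5 to 138 and 139 to 213 CPM (Cd68 and Cd74 passed, higher, and Mrc1 passed, lower; Siglech at 0). Sums of 9 erythroid markers (Car1 with the smallest p; Hba-a1 and Hbb-bs at 0) were 86.8 to 116 and 82.6 to 92.4 CPM. Sums of 8 neutrophil and monocyte markers (Prtn3) were 28.0 to 52.9 and 33.0 to 73.6 CPM, and of 10 lymphoid markers (Cd4; Cd3g and Ncr1 at 0) 16.8 to 23.2 and 19.8 to 25.8 CPM.

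In KO stem cells Taf1b RNA was lower than in WT in each library, and none of the other 9 genes passed the test. Taf1b encodes the SL1 subunit related to the general initiation factor TFIIB, which lies close to the polymerase. Its level was 36.1, 61.0, 32.1 and 44.9 CPM in WT mice 1 to 4. In KO mice 1 to 4 it was 26.6, 19.7, 11.3 and 15.4 CPM. The highest KO library thus lay below the lowest WT library, with KO mouse 1 nearest to the WT range and KO mouse 3 farthest from it. The counts behind these levels were 208, 218, 164 and 278 in WT and 186, 139, 169 and 83 in KO. The fitted log2 fold change was -1.29 (95% interval -1.86 to -0.72), and edgeR's quasi-likelihood test gave adjusted p = 0.0227. Taf1b stood at rank 42 of the 11498 genes by p. Of the 10 genes, 1 was called lower and 0 higher, against 0.330% and 0.252% of all genes tested (0.583% in either direction). At an unadjusted p under 0.05, again 1 was lower and 0 higher, against 5.45% and 5.75% of all genes tested. Both DESeq2 and limma voom called 1 lower and 0 higher. Over all genes, DESeq2 called 77 of the 18385 with a p-value lower and limma voom 25 of 11498. Libraries of the 2 groups did not overlap, with KO lower, for 2.93% of all genes tested. In bulk RNA from sorted cells, a lower level in each cell and fewer cells of a kind that expresses the gene cannot be told apart. Of the summed markers given above, stem cell markers were lower in KO without overlap, and megakaryocyte and macrophage and dendritic markers higher. The macrophage and dendritic sums were barely apart, with a WT maximum of 138.0 and a KO minimum of 138.6 CPM. In each of these lists single genes went against the sum, among them Ly6a, Pf4 and Mrc1. The part of these markers in the Taf1b result was not tested.

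**Figure D1:**
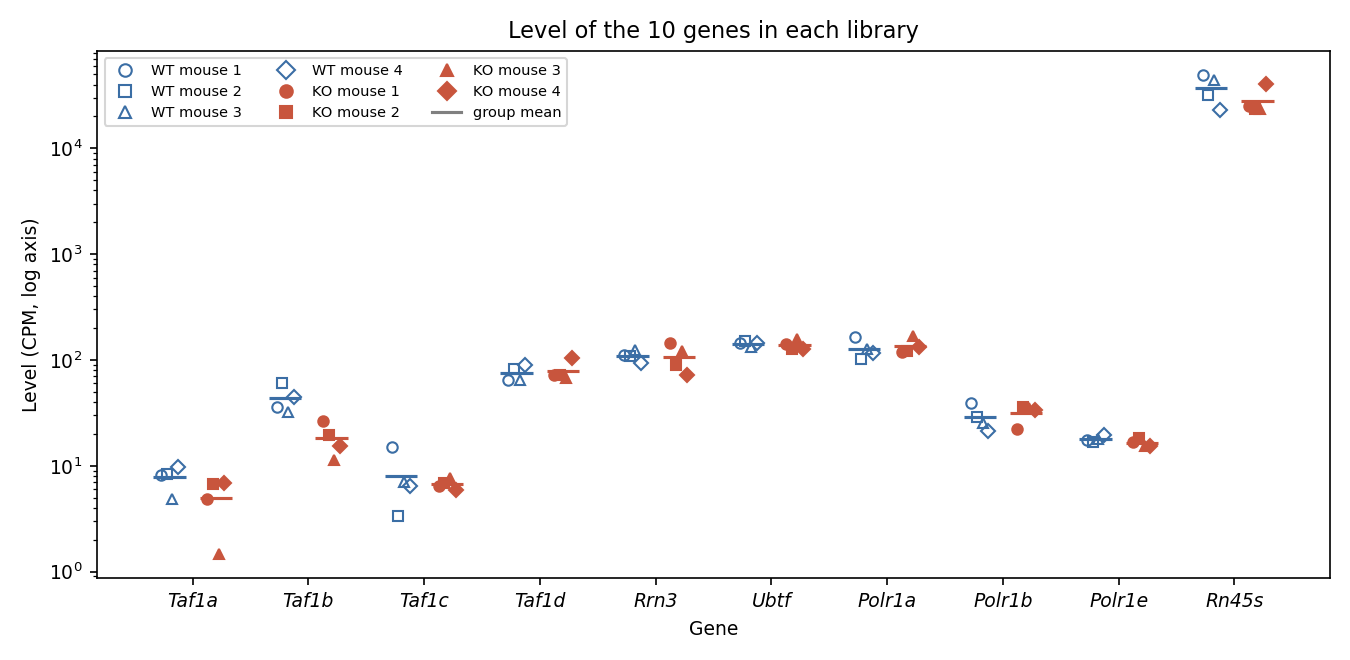
Level of each of the 10 genes in each library, in CPM on a log axis. Open blue symbols are the 4 WT mice, filled red symbols the 4 KO mice, and lines the group means. Taf1b is the only one of the 10 genes whose KO libraries, 11.3 to 26.6 CPM, all lie below its WT libraries, 32.1 to 61.0 CPM.

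The Taf1b call did not hold in every fit with a library left out. When each library was left out in turn, the log2 fold change stayed between -1.54 and -1.02, but the gene passed in 4 of 8 fits. By edgeR the adjusted p became 0.119 without WT mouse 2, 0.0654 without WT mouse 4, 0.0950 without KO mouse 3 and 0.0607 without KO mouse 4. Without WT mouse 4 the log2 fold change itself hardly moved, at -1.265. A reduced fit also has fewer libraries, and this loss was not told apart from the part of any single library. WT mouse 2 held the highest level, 61.0 CPM, in the library with the smallest total.

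Taf1b lies on chromosome 12 (24498359 to 24558539, plus strand, mm10), with 2624 bases of merged exons and no exon shared with another annotated gene. Because the start of the gene is where initiation factors and chromatin marks act, the promoter windows of the genes were compared in RefSeq (build GRCm38.p6), from 250 bases before to 50 after each annotated start. Of the 10 genes, 9 had a window, and Rn45s had none in the table used. The sequence CCGGAAG (reverse complement CTTCCGG), the core bound by ETS family factors, was searched on both strands after the windows had been seen. It occurred in windows of 5 of the 9 genes, Taf1a, Taf1b, Taf1c, Rrn3 and Polr1e, and in those of 9.9% of all 27025 genes with a window. The shares over all genes in this paragraph take in genes that did not pass the filter on low counts. Shares among the genes tested were not computed, so the comparison cannot show an enrichment. Some genes have several windows, and 8.9% of all windows held the sequence. Their matches are shown with 10 bases on each side, because the one gene that passed and 4 that did not share them; capitals mark the match, and each is read along the gene's own strand.
Taf1b, chr12:24498572-24498598: cccgtctctcCCGGAAGcggcgcttgc
Taf1a, chr1:183388825-183388851: cgggcctcgtCCGGAAGcctcttcaga
Taf1c, chr8:119605217-119605243: ctcgggcgaaCTTCCGGcctgatccgg
Rrn3, chr16:13780684-13780710: tgcagcgccaCTTCCGGggcgggtagg
Polr1e, chr4:45018624-45018650: tagaatgtcaCTTCCGGtttttgagtc
The Taf1b match began at base 2 after its RefSeq start, within the gene as GENCODE annotates it. Taf1a held 3 matches and Rrn3 held 2, of which 1 each is shown. The Taf1a matches not shown read CTTCCGG, the opposite orientation to the one shown and to that of Taf1b. The E-box CACGTG, bound by MYC among others, occurred for Rrn3 alone of the 9, where it lay at base -215 and base -48, and for 8.1% of all genes. The TATA sequence TATAAA (reverse complement TTTATA) occurred for 0 of the 9 and for 15.7% of all genes. The Taf1b window held 12 CpG dinucleotides, those of the other 8 genes between 6 and 40, and the median window 7. A match here is a description of letters and not a measured binding site.

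Among the other SL1 genes, Taf1a came closest to Taf1b in the size of its difference. Taf1a lies on chromosome 1 (183388981 to 183410198, plus strand). It measured 8.15, 8.39, 4.90 and 9.68 CPM in the WT mice, in order of their numbers, and 4.86, 6.79, 1.47 and 6.87 CPM in the KO mice. The groups overlapped, since WT mouse 3 lay among the KO libraries. The log2 fold change was -0.90 (95% interval -1.89 to 0.09), with an adjusted p of 0.494 by edgeR. This value leaned on KO mouse 3, which was also lowest in Taf1b and had 22 Taf1a counts. Without it the log2 fold change was -0.35, with an adjusted p of 0.853 by edgeR, and over all 18 alternatives the adjusted p ran from 0.384 to 0.853. Between 22 and 60 counts per library stood behind Taf1a, and its SD of log2 CPM was 0.41 in WT and 0.96 in KO.

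**Figure D2:**
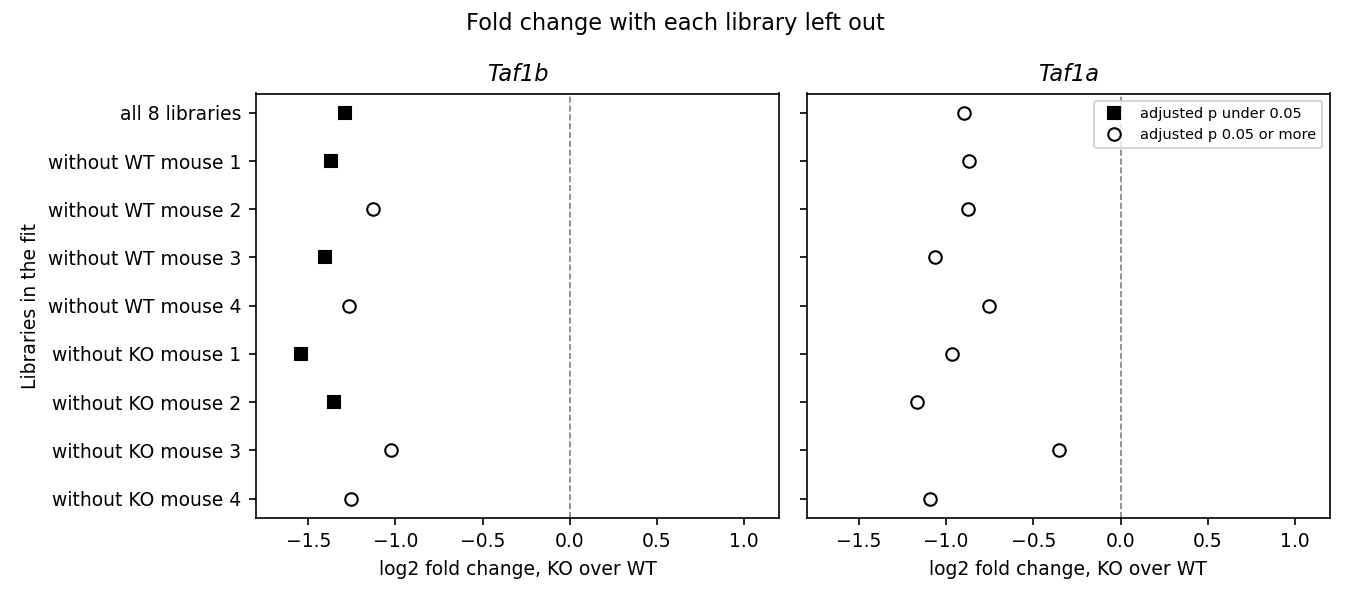
Log2 fold change of KO over WT for Taf1b (left) and Taf1a (right) with all 8 libraries and with each library left out, with filled squares where the edgeR adjusted p was under 0.05. Taf1b stays between -1.54 and -1.02 and passes in 4 of the 8 reduced fits, and Taf1a moves from -0.90 to -0.35 without KO mouse 3.

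Taf1c and Taf1d, which complete the set, were not called. Taf1c (chromosome 8, 119597871 to 119605222, minus strand) measured 15.1, 3.36, 7.05 and 6.45 CPM in WT and 6.43, 6.94, 7.62 and 5.94 CPM in KO. WT mice 1 and 2 were the highest and lowest of the 8 libraries, with all KO libraries between them. The log2 fold change was -0.28 (95% interval -1.13 to 0.56), and it was 0.23 without WT mouse 1. In all, 16.7% of its exon bases overlap Dnaaf1 on the opposite strand, and reads of these genes may not have been separated. Taf1d (chromosome 9, 15306214 to 15316991, plus strand), which also hosts small nucleolar RNAs, measured 64.0, 82.5, 64.8 and 88.7 CPM in WT. In KO it was at 72.7, 71.9, 67.3 and 103 CPM, with KO mouse 4 above all other libraries. The log2 fold change was 0.05 (95% interval -0.32 to 0.42). Small RNA and other genes on the same strand overlap 10.1% of its merged exon bases, and genes on the opposite strand overlap 3.5%.

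Taf1b made up a smaller part of the SL1 subunit reads in KO. With counts divided by the length of merged exons, Taf1b took 48.1%, 63.0%, 52.0% and 52.0% of the reads per kilobase of the 4 genes in WT mice 1 to 4. In KO mice 1 to 4 it took 45.8%, 36.9%, 29.4% and 26.7%. The group means were 53.8% ± 6.42 in WT and 34.7% ± 8.54 in KO (SD, n = 4), and the groups did not overlap, although KO mouse 1 lay close to WT mouse 1. The level of the share depends on the length used for Taf1d, whose merged exons span 8949 bases against 1148 in its longest coding transcript. With the longest coding transcript the means were 21.0% ± 3.35 and 10.2% ± 3.75 (SD, n = 4), a scale chosen after the data were seen. With raw counts they were 32.0% ± 4.86 and 16.8% ± 5.69. The groups did not overlap on any of these 3 scales, which all rest on the same Taf1b counts. With Tbp counted in, per kilobase of merged exons, the means were 45.3% ± 6.70 and 27.7% ± 7.52 (SD, n = 4). There WT mouse 1, at 38.5%, lay just above KO mouse 1, at 37.7%. No test was made of this share, since its members were chosen with earlier results known.

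**Figure D3:**
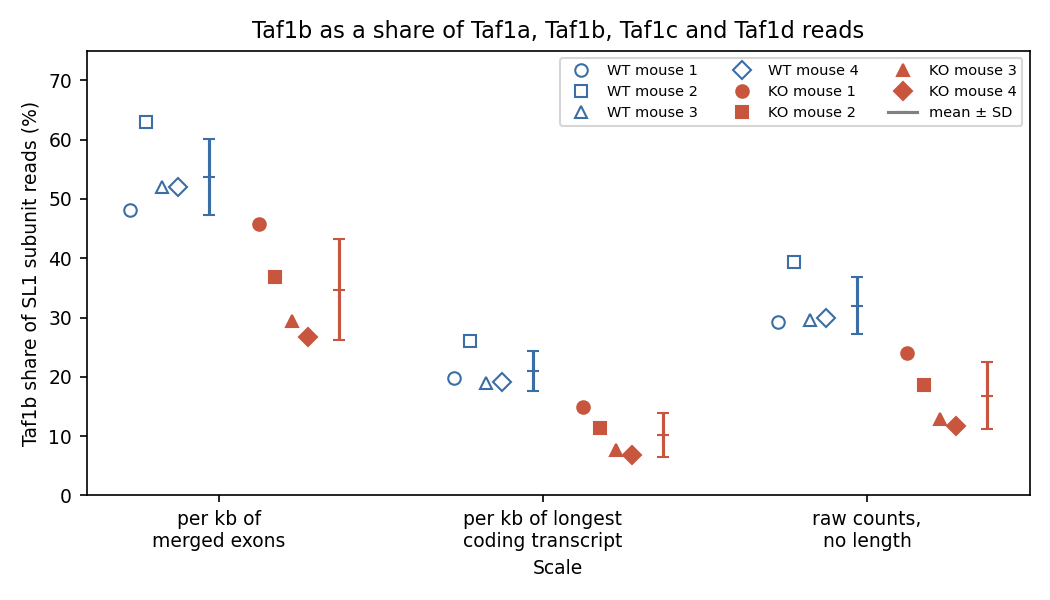
Share of Taf1b in the reads of Taf1a, Taf1b, Taf1c and Taf1d, in percent, for each WT (open blue) and KO (filled red) library on 3 length scales, with mean ± SD beside the points. On the first scale the WT libraries sit between 48.1% and 63.0% and the KO libraries between 26.7% and 45.8%.

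The initiation factors Rrn3 and Ubtf were not called. Rrn3 (chromosome 16, 13780708 to 13814839, plus strand) encodes the factor that makes the polymerase competent to bind SL1. Its level ran from 93.3 to 124 CPM in WT and from 71.9 to 146 CPM in KO, with KO mouse 1 highest and KO mouse 4 lowest of all libraries. The log2 fold change was -0.0046 (95% interval -0.38 to 0.37). Ubtf (chromosome 11, 102304560 to 102319742, minus strand) encodes the protein that bends and covers the ribosomal DNA. It ran from 133 to 150 CPM in WT and from 126 to 159 CPM in KO, with a log2 fold change of -0.033 (95% interval -0.31 to 0.25). Ubtf was among the most even of the 10 genes, with an SD of log2 CPM of 0.073 in WT and 0.154 in KO, against a median of 0.32 in each group over all genes tested.

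Polr1a, Polr1b and Polr1e were not called either. Polr1a (chromosome 6, 71909053 to 71984935, plus strand) encodes the largest subunit, which forms the active site together with the product of Polr1b. It ran from 102 to 165 CPM in WT and from 118 to 169 CPM in KO, and the fitted log2 fold change was 0.094 (95% interval -0.24 to 0.42). Polr1b (chromosome 2, 129100995 to 129126594, plus strand) ran from 21.5 to 39.0 CPM in WT and from 22.4 to 36.1 CPM in KO, giving a log2 fold change of 0.17 (95% interval -0.34 to 0.67). Polr1e (chromosome 4, 45018583 to 45036565, plus strand), whose product belongs to a pair of subunits that help initiation and elongation, ran from 16.8 to 19.4 CPM in WT. In KO it ran from 15.4 to 18.3 CPM, a log2 fold change of -0.14 (95% interval -0.69 to 0.42). Adjusted p-values of Rrn3, Ubtf, Polr1a, Polr1b and Polr1e were between 0.872 and 0.995 by edgeR.

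Read against these intervals, a decrease of the size fitted for Taf1b lay outside the 95% intervals of 8 of the 9 other genes. Taf1a was the exception. For 6 of the 9, Taf1d, Rrn3, Ubtf, Polr1a, Polr1b and Polr1e, the whole interval lay above that of Taf1b. Among the other polymerase I subunit genes described below, only the interval of Polr2k reached that size (-1.40 to 0.88). The share of all genes tested whose interval leaves it out was not computed. Since Taf1b was picked on these same libraries, these counts are not separate evidence that it stands apart. The differences between genes were not tested directly. Over the 10 genes, 3 had a fitted fold above 1 and 7 below it, with a median log2 fold change of -0.085, against a median of 0.0021 and 49.8% with a fold below 1 over all genes tested.

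Per length, the genes fell into a similar order in WT on both length scales except for Taf1d. In CPM per kilobase of merged exons, mean WT levels were 25.2 for Rrn3, 21.8 for Ubtf, 16.6 for Taf1b, 10.7 for Polr1a and 8.38 for Taf1d. They were 4.95 for Polr1b, 4.59 for Polr1e, 3.23 for Taf1a and 2.29 for Taf1c. The WT ranges of neighbours in this order overlapped, apart from Taf1d above Polr1b and Polr1e above Taf1a. Per kilobase of the longest coding transcript, Taf1d came first at 65.3, above Rrn3 at 30.4, Ubtf at 30.4 and Taf1b at 19.7. In KO, Taf1b stood at 6.95 CPM per kilobase of merged exons and thus below Polr1a at 11.4 and Taf1d at 8.81.

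Rn45s RNA did not differ between the groups beyond the spread of the libraries. Its row is that of the precursor, but the precursor contains the sequences of the mature ribosomal RNAs, so its reads do not measure new transcription alone. It took 4.85%, 3.17%, 4.42% and 2.38% of all counts in the WT mice and 2.49%, 2.39%, 2.37% and 3.93% in the KO mice, in order of number. KO mice 1 to 3 and WT mouse 4 lay close together at the low end, while KO mouse 4 lay among the higher WT libraries. The mean was 3.71% ± 1.13 in WT and 2.80% ± 0.758 in KO, with an exact two-sided permutation p of 0.229 (n = 4 against 4), where the smallest possible is 0.0286. In the fit across all genes the log2 fold change was -0.40 (95% interval -1.13 to 0.33), with an adjusted p of 0.712 by edgeR. Leaving out each library in turn gave differences between -1.35 and -0.529 percentage points, the former without WT mouse 4 and the latter without WT mouse 1. Rn45s and Taf1b did not follow the same order: KO mouse 4, with the most Rn45s in its group, had the second lowest Taf1b level. Ribosomal RNA reads also depend on how the RNA was primed and amplified, whose part in these shares was not tested.

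The rest of the polymerase I machinery gave no call over all genes. Of 10 other subunit genes, 0 passed edgeR's test, and 0 passed by DESeq2 or limma voom. At an unadjusted p under 0.05, 1 was lower and 0 higher, against 5.45% and 5.75% of all genes tested. The 1 was Znrd1, which encodes a small subunit used in RNA cleavage and termination. Znrd1 measured 29.3, 30.8, 23.5 and 26.6 CPM in WT and 18.3, 22.6, 16.2 and 11.5 CPM in KO. Its libraries did not overlap, and the log2 fold change was -0.66 (95% interval -1.20 to -0.13), with an adjusted p of 0.317 by edgeR. For the subunits shared with polymerase III, Polr1c and Polr1d, log2 fold changes were 0.12 and 0.14. For Twistnb, which encodes a subunit of the stalk, and Cd3eap, the partner of the Polr1e product, they were -0.16 and 0.32. For the subunits shared by all 3 polymerases, Polr2e, Polr2f, Polr2h, Polr2k and Polr2l, they were 0.17, -0.29, -0.064, -0.26 and 0.99. Polr2l and Polr2k were at mean levels of only 1.99 to 5.40 CPM, with intervals reaching from -0.15 to 2.13 for Polr2l and from -1.40 to 0.88 for Polr2k. The median of these 10 genes was 0.029.

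**Figure D4:**
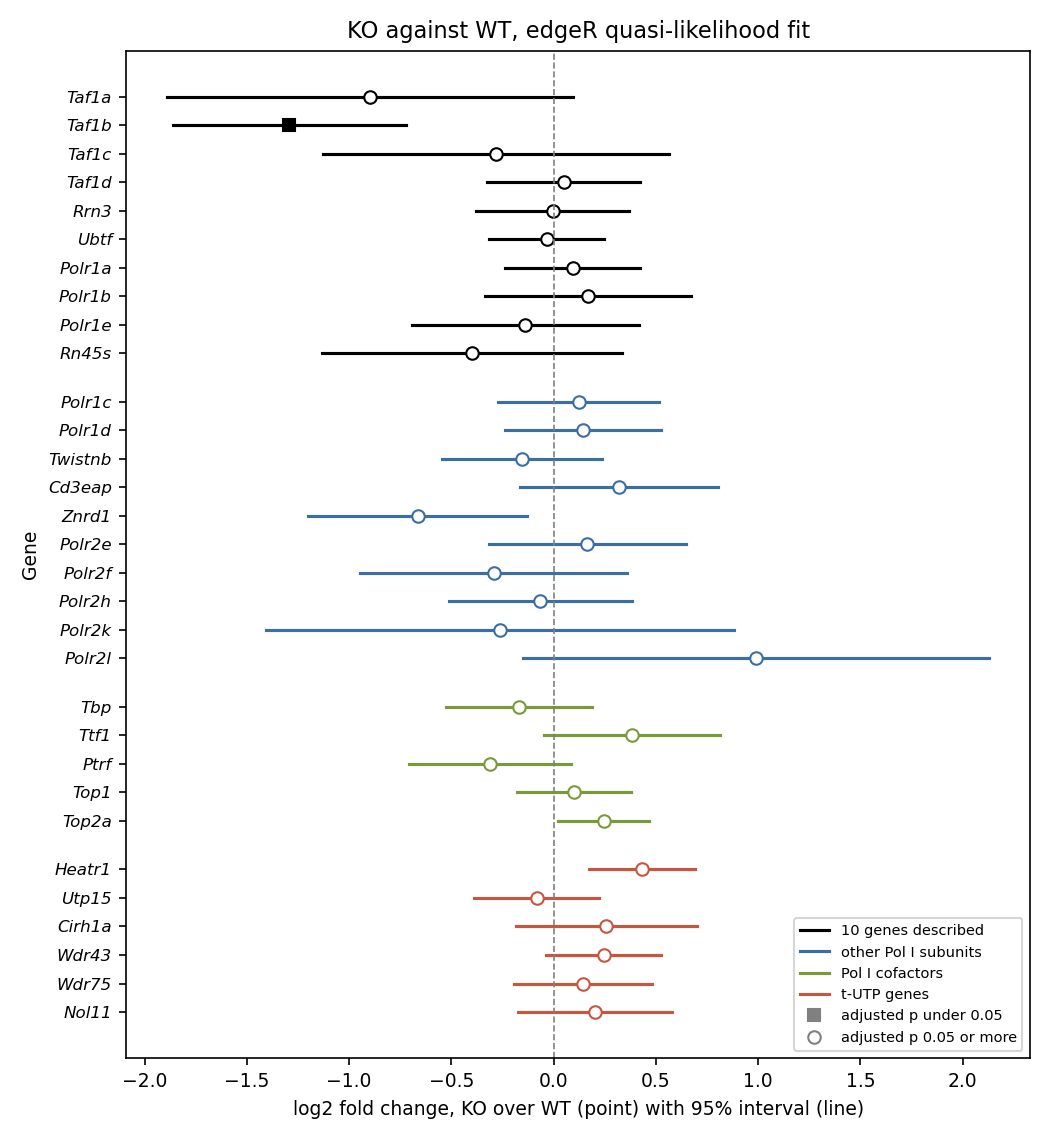
Log2 fold change of KO over WT with its 95% interval for the 10 genes described, the other polymerase I subunit genes, the cofactor genes and the t-UTP genes. Taf1b, at -1.29, is the only one of these genes with an adjusted p under 0.05, and the intervals of Znrd1, Top2a and Heatr1 also leave out 0.

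Among 5 cofactor genes, 0 passed by edgeR, DESeq2 or limma voom. At an unadjusted p under 0.05 1 was higher and 0 lower, against 5.75% and 5.45% of all genes tested. Tbp, whose product is the TATA-binding protein at the heart of SL1 and of factors for the other polymerases, had a log2 fold change of -0.17 (95% interval -0.53 to 0.19). A share of 19.0% of its exon bases overlaps Pdcd2 on the opposite strand. Ttf1, which encodes the terminator-binding factor of ribosomal DNA, measured 40.1 ± 8.31 CPM in WT and 53.6 ± 8.05 CPM in KO (SD, n = 4), which gave a log2 fold change of 0.38. For Ptrf, the transcript release factor, and for the topoisomerase genes Top1 and Top2a, the values were -0.31, 0.099 and 0.25. Top2a, whose RNA is also known to rise in dividing cells, was the 1 with an unadjusted p under 0.05 (adjusted p = 0.384 by edgeR).

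Of 6 t-UTP genes, whose products act in early ribosomal RNA processing and are needed for its transcription, 0 passed edgeR's test. With unadjusted p under 0.05, 1 was higher and 0 lower, against 5.75% and 5.45% of all genes tested. DESeq2 called 1 higher, against 80 of the 18385 genes with a p-value, limma voom called 0, and the median was 0.22. Heatr1 was the 1 gene, at 166, 141, 144 and 158 CPM in WT and 205, 202, 221 and 193 CPM in KO. The groups did not overlap, in the opposite direction to Taf1b, with a log2 fold change of 0.43 (95% interval 0.17 to 0.69) and an adjusted p of 0.138 by edgeR. In DESeq2 the adjusted p was 0.0415. Libraries did not overlap, in either direction, for 5.81% of all genes tested.

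Of 17 genes of ribosomal DNA chromatin and regulators of polymerase I, 0 passed by edgeR, DESeq2 or limma voom. At an unadjusted p under 0.05, 1 was higher and 1 lower, against 5.75% and 5.45% of all genes tested. The median log2 fold change was 0.0037. Rb1, which encodes the retinoblastoma protein and restrains UBTF, had the smallest p, with a log2 fold change of 0.39 (adjusted p = 0.366 by edgeR). Ehmt2, an H3K9 methyltransferase gene, was the lower one, at -0.44, and its libraries did not overlap. Myc, an activator of ribosome production, measured 531 ± 81.3 CPM in WT and 583 ± 69.0 CPM in KO (SD, n = 4). Baz2a and Smarca5, which encode the silencing complex of ribosomal DNA repeats, were at -0.016 and 0.0037.

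The machinery of the other polymerases served as a comparison. Of 20 tested polymerase III genes, 7 polymerase II subunit genes and 15 subunit genes of TFIID, the TBP complex of polymerase II, 0, 0 and 0 passed by edgeR, DESeq2 or limma voom. With unadjusted p under 0.05, the higher genes numbered 1, 1 and 0 and the lower ones 0, 0 and 0. Over all genes tested, 5.75% were higher and 5.45% lower. Median log2 fold changes were -0.0018, 0.10 and 0.088. The genes with the smallest p in each list were Polr3a at 0.78 (95% interval 0.26 to 1.30), Polr2a at 0.27, where KO libraries all lay above WT, and Taf4a at -0.29. Fitted values of the 15 TFIID genes lay between -0.33 and 0.34, and Taf1b was at -1.29. Since Taf1b was picked on these same libraries, its place outside that range is not separate evidence.

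The difference at Taf1b was not seen in its tested neighbours. Within 500 kb of its start, 7 other genes of the tables have their start, and 5 of them passed the filter. Grhl1, the nearest at 73.9 kb and an epithelial transcription factor gene, showed no overlap of the groups, with KO above WT, at 1.56 to 2.24 CPM in WT and 2.60 to 9.20 CPM in KO. It rested on 8 to 65 counts per library and did not pass (log2 fold change 1.33, adjusted p = 0.375 by edgeR). Rrm2, a ribonucleotide reductase gene of S phase, was at 62.1 ± 13.3 and 88.2 ± 11.1 CPM (SD, n = 4), a log2 fold change of 0.51 (adjusted p = 0.254 by edgeR). Klf11, Mboat2 and Kidins220 had log2 fold changes of -0.13, -0.26 and -0.050, with adjusted p between 0.809 and 0.922 by edgeR. The other 2, Cys1 and 9030624G23Rik, had at most 24 and 11 counts in any library.

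The genes with the most similar profile to Taf1b over the 8 libraries were sought among 6718 genes with a mean of at least 20 CPM. Likeness was the root mean square difference of log2 CPM after each gene was centred on its own mean. The 5 closest were Rbmxl1 (0.264), Zcchc3 (0.346), Myo5c (0.349), Glt8d1 (0.355) and Pkia (0.363). A flat profile would have differed by 0.749, and the median gene differed by 0.786. Rbmxl1, an RNA-binding protein gene, measured 54.3, 84.2, 50.1 and 78.7 CPM in WT and 50.2, 25.1, 26.1 and 30.6 CPM in KO, and it shared with Taf1b the high values of WT mice 2 and 4, while KO mouse 1 lay at the level of WT mouse 3. The 5 were picked on these same libraries for a profile like that of Taf1b. A lower level in KO therefore follows from the choice and is not separate evidence. Rbmxl1 and Zcchc3 passed, with log2 fold changes of -1.03 and -1.37 and adjusted p of 0.0348 and 0.0109 by edgeR. Myo5c, Glt8d1 and Pkia did not pass, at -0.79, -0.86 and -0.75. Among the 9 other genes of the set, Taf1a was the most alike at 0.562 and Taf1c the least at 1.02.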

How the data were processed

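Each library has a deposited table of whole-number counts by gene symbol, not normalized. According to the extraction text, per the labels, total RNA went through Nugen Ovation amplification; STAR 2.4.0d-2 did the mapping and htseq-count 0.6.1galaxy1 the counting, both run by the authors on Galaxy. The build was mm10, per the submitters' processing notes; neither the annotation nor the strand setting was stated there. No molecular identifiers are named. Symbols were matched to GENCODE M21 of that build (23053 by symbol, 793 by synonym, 376 unmatched).

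Counts were fitted with edgeR 4.0.16 in R 4.3.3: filterByExpr by group (minimum count 10, minimum total 15), TMM factors (0.974 to 1.03), robust quasi-likelihood fit with genotype as the only term, two-sided tests, Benjamini-Hochberg adjustment over the 11498 genes tested and a threshold of 0.05. CPM are counts per 1000000 of the TMM-adjusted total. The standard error behind each 95% interval was the log2 fold change divided by the square root of F. Spread and likeness used log2 CPM with a prior count of 2. DESeq2 1.42.0 and limma 3.58.1 (voom), other scalings and filters, thinned counts, a replicate block and omission of each library were alternatives.

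The members and lists were chosen with earlier results of these data known. Genes named were all 10 members, all other subunit and cofactor genes of polymerase I, called genes or the smallest p of each other list, tested neighbours of Taf1b and the 5 most similar genes; others were chosen after their values were seen (Ehmt2, Mecom, Pf4, Myc, Baz2a, Smarca5, Cys1 and 9030624G23Rik).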

Additional observations from a re-analysis of the deposited data

Results flagged for a closer look

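KO mouse 4 stood apart from the other 3 KO libraries in Taf1d and in Rn45s by Dixon's gap test at its 95% critical value for 4 samples. Its Taf1d level was 103.2 CPM against 67.3 to 72.7 CPM in the other KO libraries. Its Rn45s level was 40460 CPM against 23593 to 25140 CPM, and its Rn45s share of all counts was 3.932% against 2.37% to 2.49%. Of the 24 groups of values examined, chance alone would flag about 1 in 20, and the Rn45s level and share are nearly the same measurement.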

How the results depend on the processing

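Taf1b kept its direction in all 18 alternatives and passed in 14, including the replicate block (log2 fold change -1.25, adjusted p = 0.0254 by edgeR); the 4 losses each left out 1 library (range -1.54 to -1.02). Mouse numbers named different animals, and same-numbered libraries did not deviate together (correlations -0.0917 to -0.0089, none closest to its own number). These correlations cannot show whether any libraries shared a litter, sort day or preparation. The block changed the call of none of the 10 genes. The count of genes past the threshold was 67 (57 with the block), 198 without a filter, 157 with DESeq2 and 35 to 70 with single libraries left out (44 without WT mouse 2, 35 without WT mouse 3, 44 without KO mouse 4). Without a filter Rn45s had an adjusted p of 2.78e-17 by edgeR at a log2 fold change of -0.39; the cause was not tested. Values that were never called and changed sign were Taf1c with thinned counts (0.040), Rrn3 without a filter (0.0097) and, over omitted libraries, Taf1c (-0.46 to 0.23), Taf1d (-0.088 to 0.15), Rrn3 (-0.17 to 0.13), Ubtf (-0.11 to 0.0083) and Polr1a (-0.045 to 0.25). The difference in the Taf1b share of SL1 reads was -19.0 percentage points, and -10.8 with the longest coding transcript. Counts were lowest for Taf1a and Taf1c, at 12 to 114 per library.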
